A study of Mus musculus with 20 samples.

Results

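IL-33 added to IL-25 was examined in IL25R+ ILC2 (group 2 innate lymphoid cells) by setting 3 libraries of cells given both cytokines against 3 libraries of cells given IL-25 alone. These 6 libraries, taken by their labels, are 6 of the 12 of IL25R+ cells and of the 20 of the whole study, and all genes were tested. The cells were sorted as IL-25R high or ST2+ from thymi of young male WT mice and cultured in medium with 10 ng/mL IL-7 for 12 h and, after a medium change, for 24 h. The 4 treatments of IL25R+ cells, each in 3 libraries, were 10 ng/mL rIL-25 with 10 ng/mL rIL-33, 10 ng/mL rIL-25, 10 ng/mL rIL-33, and vehicle (PBS), each for 24 h. ST2+ cells received 10 ng/mL rIL-33 or vehicle for 24 h, in 4 libraries each. All groups therefore shared IL-7 and the WT background. Separate mice or cultures are not stated for the replicates, so that p-values measure the spread between these libraries, which may be technical.

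ILC2 are tissue lymphocytes without antigen receptors that answer epithelial and stromal alarm signals with type-2 cytokines such as IL-13, IL-5 and IL-9. IL-33 binds ST2, the product of Il1rl1, together with the accessory protein of Il1rap, and signals through MyD88 to NF-kB and MAP kinases. IL-25 binds IL-17RB, the product of Il17rb, with IL-17RA and signals through Act1 and TRAF proteins to the same factors. The study placed both cytokines in the regrowth of the thymus, and this comparison asks what IL-33 adds where IL-25 is already present.

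The libraries were counted by MARS-seq, which reads the 3′ end of transcripts. The 6 compared libraries held 1398657 to 1880906 counts and the other 6 of IL25R+ cells 834913 to 1423004, and 8850 of the 10696 listed genes passed the filter on low counts. Levels are given in CPM, for which a gene's counts are divided by the library size times a scaling factor (TMM) of that library. In the IL25R+ libraries this factor ran from 0.9186 (IL-25 library 3) to 1.095 (IL-33 library 2), so CPM is not a plain share of the counts. They compare 1 gene between libraries, since a 3′ count does not depend on transcript length as a whole-transcript count does. In this RNA from whole wells, fewer cells of a type and less RNA per cell cannot be told apart. ILC2 markers were present in both groups. Gata3, the lineage factor of ILC2, stood at 233, 207 and 176 CPM with both cytokines, against 245, 207 and 222 CPM with IL-25. The 16 listed ILC2 markers summed to 4006 to 4128 CPM with both cytokines and 4062 to 4289 CPM with IL-25. The 12 listed markers of T cells and thymocytes, which include Dntt, Cd8b1 and Themis, summed to 1019 to 1109 CPM with both cytokines and 1199 to 1441 CPM with IL-25. The 5 listed markers of myeloid and dendritic cells summed to 344 to 370 CPM with both cytokines and 390 to 409 CPM with IL-25. Among these 5, 1 gene alone reached a mean of 10 CPM over the 12 libraries, so the sum rests mainly on that gene. Lyz2 was at 1.91 CPM or less in each of the 6 libraries. None of the erythroid markers is listed.

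A split of the libraries runs along this comparison and touches every result given here. Glycam1, which encodes a secreted mucin-like protein, stood at 152, 150 and 154 CPM with both cytokines and at 0 in the 3 IL-25 libraries. With IL-33 it stood at 0.731, 0 and 133 CPM, and with vehicle at 116, 223 and 439 CPM. The side with Glycam1 above 10 CPM thus holds 7 libraries, namely all 3 with both cytokines, IL-33 library 3 and all 3 with vehicle, and the other side holds 5. The split and the addition of IL-33 cannot be told apart in the 6 compared libraries. The other 6 bear on it by position alone. A gene whose 3 libraries with both cytokines lie above or below all 9 others is not ordered by the split alone, since the other 4 libraries of the Glycam1 side then do not reach those 3. Such a position still cannot tell IL-33 from the split, since a gene that differs with IL-25 and also with the split can hold it too. When the split was put in the model as a term, its size came from the IL-33 group alone, where library 3 differs in side from libraries 1 and 2. That fit called 5 genes, and of the named genes Alox5ap alone passed in it, as it did without the term.

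**Figure D1:**
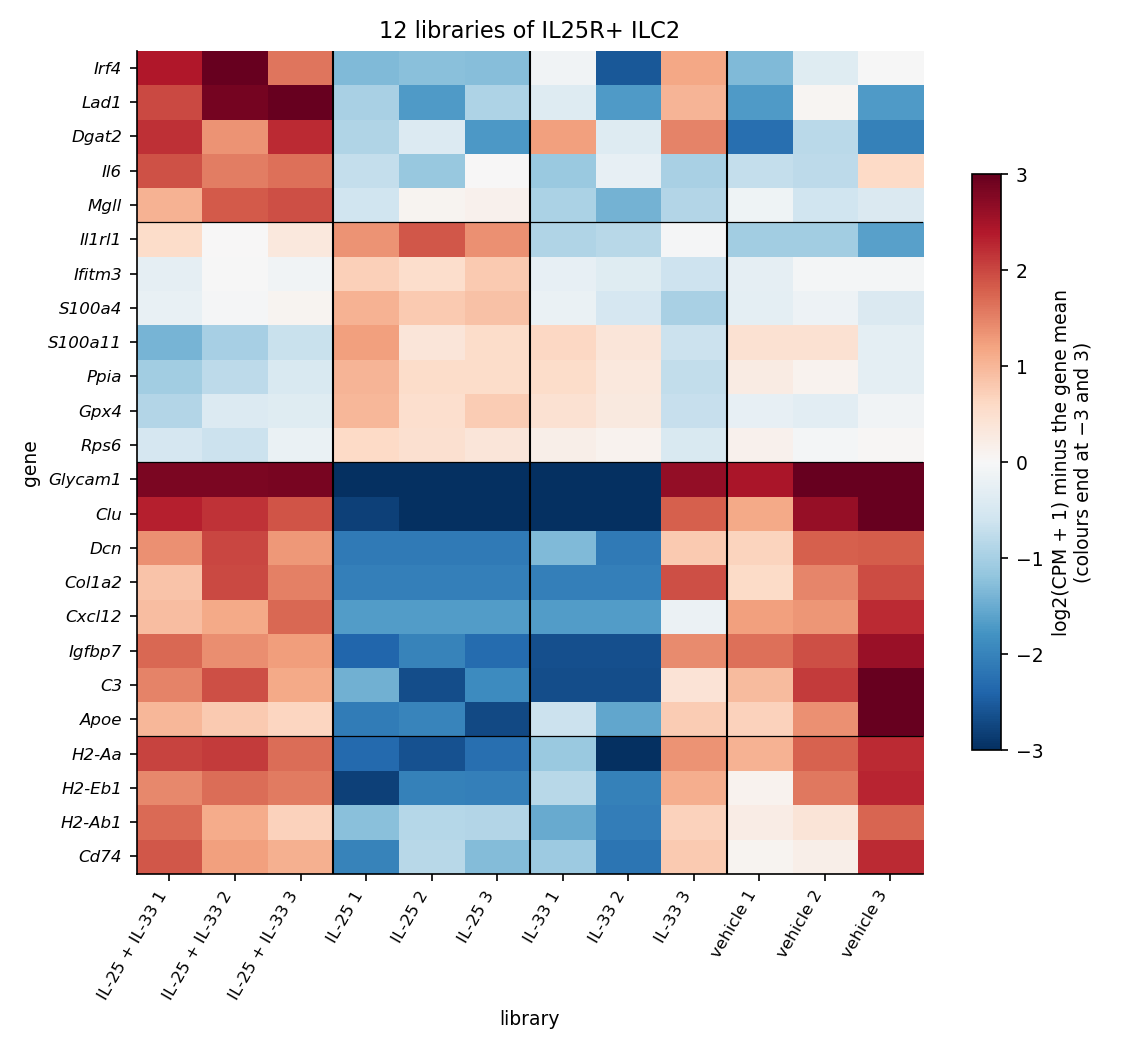
Level of 24 genes (rows) in the 12 libraries of IL25R+ cells (columns, grouped by treatment), as log2(CPM + 1) minus the mean of the gene over the 12 libraries; colours end at −3 and 3. Irf4 and Lad1 were highest in the 3 libraries with both cytokines, while the genes from Glycam1 to Cd74 were high in those 3, in IL-33 library 3 and in the vehicle libraries.

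With IL-33 added, 120 genes were higher (1.36% of genes tested) and 158 were lower (1.79%) by edgeR's quasi-likelihood test at an adjusted p of 0.05. A fold change of at least 2 was passed by 41 of the higher genes (0.463%) and 29 of the lower ones (0.328%). The median log2 fold change of all genes tested was 0.0042. Of the 120 higher genes, 64 were above all 9 other libraries and 28 were above in the 7 libraries of the Glycam1 side, with 1 gene in both sets and 29 in neither. Of the 158 lower genes, 54 were below all 9 others and 23 were below in the 7, with 8 in both sets and 89 in neither. Over all genes tested, 3.55% lay above and 3.14% below all 9 others, and 1.01% and 1.11% followed the split upward and downward. The count of 278 fell to 99, 120 and 99 without IL-25 library 1, 2 or 3, and to 84, 80 and 166 without library 1, 2 or 3 with both cytokines. It was 444 without IL-33 library 1 and 620 without IL-33 library 3. In all 12 fits that left out 1 library, 46 of the 278 genes passed, 22 of them higher and 24 lower, and for every other gene named as passed below the libraries that end its call are given.

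**Figure D2:**
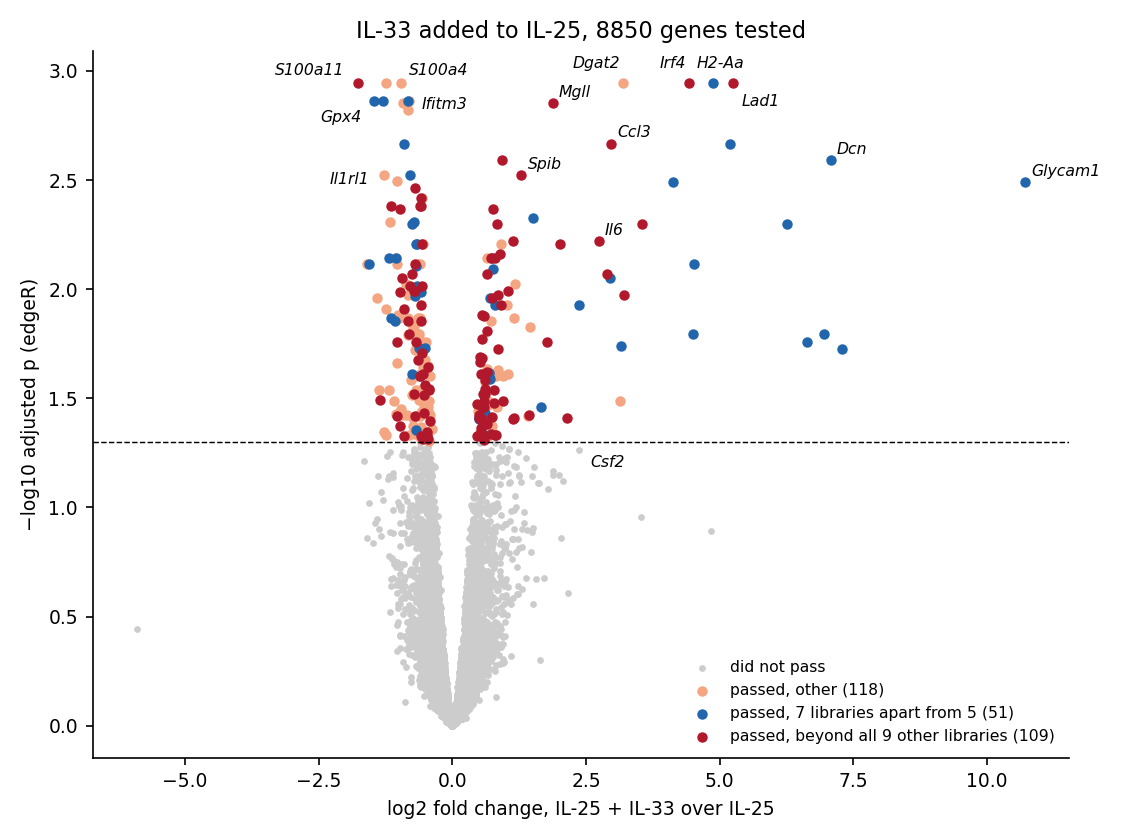
The log2 fold change with both cytokines over IL-25 (x axis) against −log10 of the edgeR adjusted p (y axis) for 8850 genes; the dashed line marks an adjusted p of 0.05. Genes are coloured by whether the 3 libraries with both cytokines lay beyond all 9 others without following the split (109), whether the 7 libraries of the Glycam1 side lay apart from the other 5 (51), or neither (118). Fitted folds of genes with 3 counts or fewer in the IL-25 group, such as Glycam1, Dcn and Lad1, depend on the prior count.

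Irf4 and Lad1 were at 1.42 CPM or less in each IL-25 library and higher with both cytokines. Irf4, a transcription factor that is induced when lymphocytes are activated (chr13:30749226-30766976, plus strand, mm10), stood at 29.8, 46.5 and 16.6 CPM with both cytokines, against 1.30, 1.42 and 1.39 CPM with IL-25. IL-33 alone gave 4.38, 0 and 12.0 CPM and vehicle 1.31, 3.51 and 4.74 CPM, so the 3 libraries with both cytokines lay above all 9 others. The log2 fold change of Irf4 was 4.43 ± 0.63 (SE), a 21.5-fold difference (adjusted p = 0.00113). Lad1, which encodes the filament protein ladinin 1 (chr1:135818598-135833342, plus strand), stood at 11.6, 22.4 and 27.4 CPM with both cytokines, against 0.648, 0 and 0.696 CPM with IL-25. With 100 counts against 2 over the groups, the ratio of Lad1 was 48.2, with an exact 95% interval of 13 to 404.0 that covers counting error only (edgeR adjusted p = 0.00113). The other 6 libraries held 5.54 CPM of Lad1 or less. With the split as a term Irf4 was at 2.02 (adjusted p = 0.592) and Lad1 at 2.47 (0.678), both by edgeR.

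Enzymes of neutral lipid handling were among the higher genes. Dgat2, which catalyses the last step of triglyceride synthesis (chr7:99153658-99182719, minus strand), stood at 34.9, 19.1 and 36.3 CPM with both cytokines, against 3.24, 4.96 and 1.39 CPM with IL-25. IL-33 alone gave 17.5, 5.06 and 21.2 CPM of Dgat2, which overlaps the libraries with both, and vehicle gave at most 3.51 CPM. The log2 fold change of Dgat2 was 3.19 ± 0.47 (adjusted p = 0.00113). Mgll, the lipase that splits monoacylglycerols, stood at 20.3, 36.1 and 38.9 CPM with both cytokines, against 5.83, 9.92 and 10.4 CPM with IL-25. IL-33 alone left Mgll at 2.89 to 4.62 CPM and vehicle at 5.86 to 8.5 CPM, so the rise was seen where both cytokines were present (1.88 ± 0.30, adjusted p = 0.00141). The effect of IL-33 on Mgll differed with and without IL-25 (2.75 ± 0.57 on the log2 scale, interaction adjusted p = 0.0128), though not without vehicle library 1 (adjusted p = 0.0601). Over all genes tested 1.36% were higher and 1.79% lower. Of the 14 tested genes of triglycerides, lipid droplets and lipid mediators, Dgat2 and Mgll were higher and 1 was lower, at a median of 0.09. The lower one, Alox5ap, the activator of leukotriene synthesis, stood at 75.5, 66.2 and 80.3 CPM with both cytokines, against 117, 126 and 125 CPM with IL-25. Its log2 fold change was −0.73 ± 0.16 (adjusted p = 0.0149), and −1.35 with the split as a term (adjusted p = 0.0336). Alox5ap lost its call without IL-25 library 2 or 3 or library 1 or 2 with both cytokines (adjusted p = 0.0642 to 0.108). None of the 21 genes of cholesterol and fatty acid synthesis passed by edgeR, DESeq2 or limma-voom. An unadjusted edgeR p under 0.05 was held by 4 of them, and by 18.4% of all genes tested. In this and the later lists, a gene to which DESeq2 gave no adjusted p counts as not passed.

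Among secreted proteins, Il6 and Ccl3 rose while Il13 and Il4 did not pass. Il6, an inflammatory cytokine (chr5:30013114-30019981, plus strand), stood at 13.1, 9.85 and 10.8 CPM with both cytokines, against 1.30, 0.708 and 2.78 CPM with IL-25. The 6 libraries without IL-25 held 0.731 to 4.74 CPM of Il6, all below those with both cytokines, and its log2 fold change was 2.74 ± 0.52 (adjusted p = 0.00604). Ccl3, a chemokine that draws myeloid cells and lymphocytes, stood at 11.6, 33.4 and 30.6 CPM with both cytokines, against 0.648, 3.54 and 5.57 CPM with IL-25. Its highest value elsewhere was 10.2 CPM, in IL-33 library 3, and its log2 fold change was 2.97 ± 0.49 (adjusted p = 0.00215). Of the 4 tested genes of the chemokine list 3 were higher (1.36% of all genes tested were), at a median of 3.05. The others were Cxcl1 and Cxcl10. The chemokine Cxcl12, given below with the stromal genes, was also higher but is not in that list. Cxcl1 followed the split, at 7.99, 9.85 and 8.92 CPM with both cytokines and 0 with IL-25, but 12.9 CPM in IL-33 library 3 and 12.9 to 26.6 CPM with vehicle. Cxcl10 stood at 22.5, 8.21 and 2.55 CPM with both cytokines, against 0.648, 1.42 and 1.39 CPM with IL-25, and vehicle library 2 held 9.37 CPM. The calls of Cxcl1 (adjusted p = 0.0522 to 0.0762) and Cxcl10 (0.0682 to 0.227) were each lost without any IL-25 library and without library 1 or 2 with both. Cxcl10 also missed the threshold by limma-voom (adjusted p = 0.112).

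**Figure D3:**
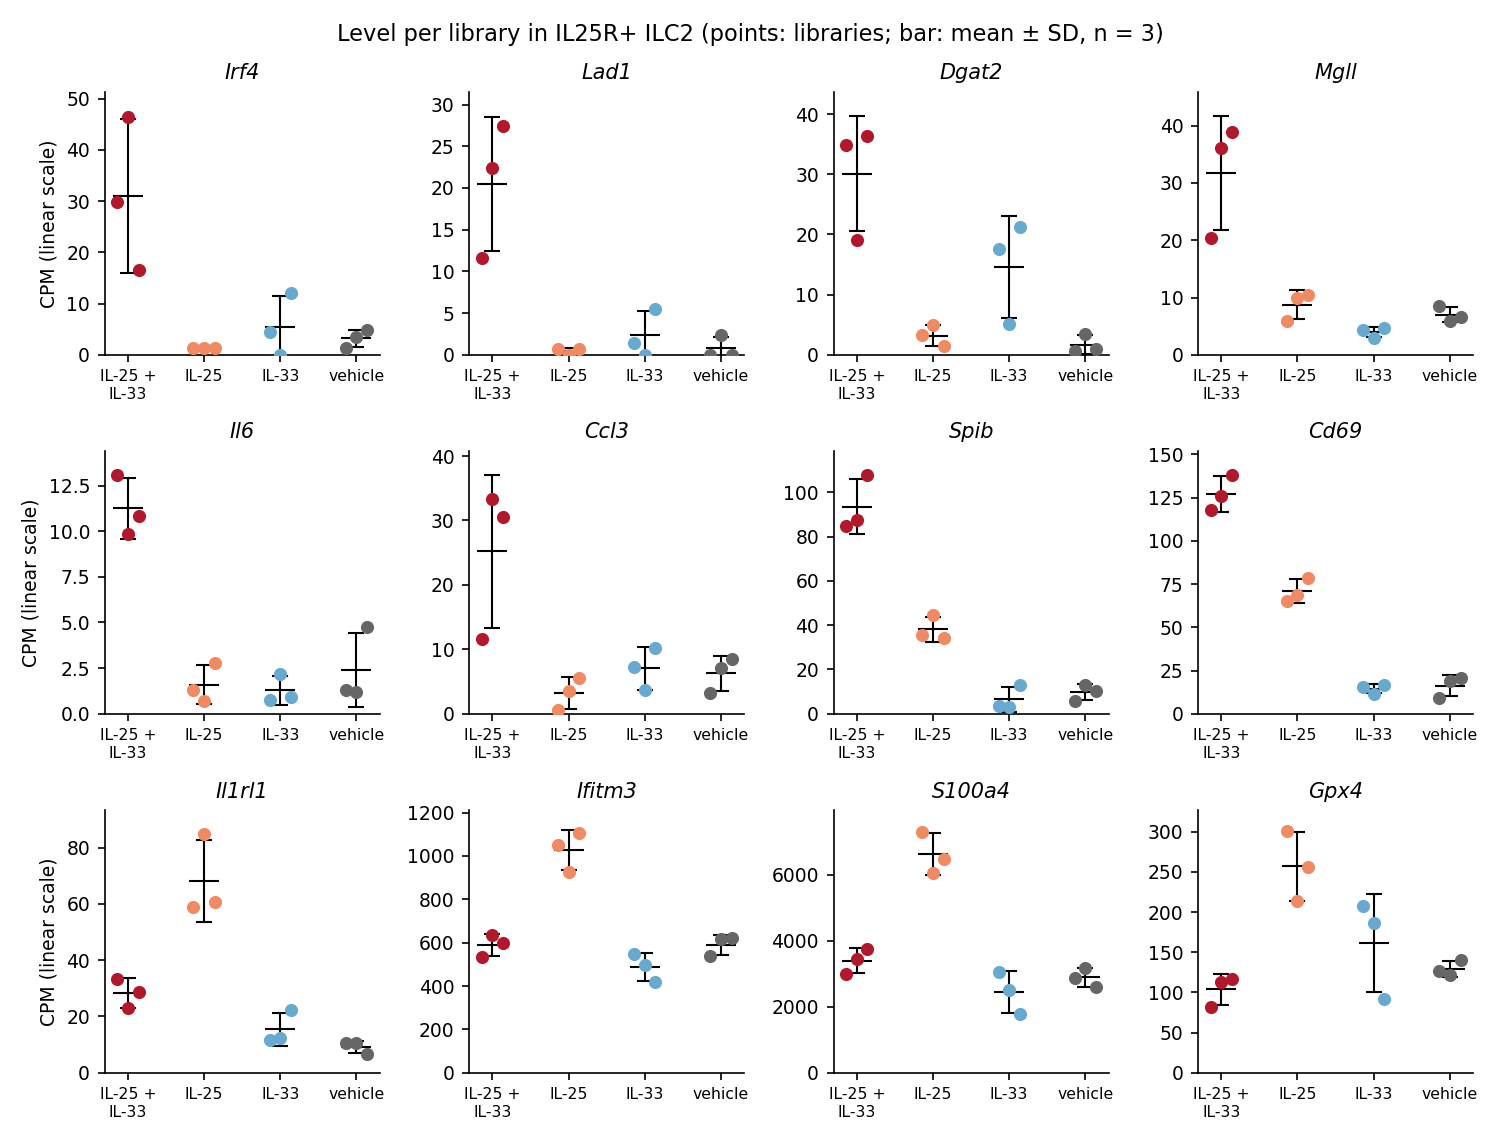
CPM of 12 genes (y axes, linear, from 0) in the 4 groups of IL25R+ cells; points are libraries, and bars give the mean ± SD of 3. The upper 8 genes were higher with both cytokines than with IL-25 in each library, and the lower row was lower in each.

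None of the 5 tested type-2 cytokines and effector products passed by edgeR, DESeq2 or limma-voom, at a median of −0.19. An unadjusted edgeR p under 0.05 was held by 1 of them, and by 18.4% of all genes tested. DESeq2 gave Il4 no adjusted p. These 5 do not include Il9, which the filter on low counts left out. Il13 stood at 375, 364 and 301 CPM with both cytokines, against 133, 171 and 310 CPM with IL-25, and IL-25 library 3 overlaps the first group. Its log2 fold change was 0.76 ± 0.33 (adjusted p = 0.218). Il13 passed without IL-33 library 2 (adjusted p = 0.0443) and when the 6 compared libraries were fitted alone (adjusted p = 0.00198). IL-33 alone gave 189, 30.4 and 112 CPM of Il13, and vehicle 15 to 32.8 CPM. Csf2, which encodes the growth factor GM-CSF, stood at 6.54, 11.5 and 14.7 CPM with both cytokines, against 2.59, 2.13 and 1.39 CPM with IL-25. Csf2 just missed the threshold at 2.38 ± 0.67 (adjusted p = 0.0547), and passed without IL-33 library 1, 2 or 3 (adjusted p = 0.00772 to 0.027) or with the 6 libraries alone (adjusted p = 0.000961). With all 12 libraries Il9 and Il5 were below the filter. Il9 had 2, 215 and 23 counts with both cytokines and 0 in each IL-25 library, so that library 2 with both cytokines held most of it. Against a floor of 3 counts over the IL-25 group, the summed counts of Il9 were at least 77.2-fold higher with both cytokines. That floor covers counting error in the IL-25 group only, not the spread between libraries. Where Il9 was tested it passed by edgeR, without a filter on low counts (adjusted p = 0.0141), with a filter at a mean of 10 CPM (0.0113) and in 10 of the 12 fits with 1 library left out (0.00107 to 0.0475). Without library 2 or 3 with both cytokines Il9 was below the filter. Il5 had 4, 6 and 7 counts with both cytokines and 4, 2 and 3 with IL-25. Il4 stood at 7.99, 4.92 and 3.18 CPM with both cytokines, against 9.72, 4.25 and 8.35 CPM with IL-25 (−0.50 ± 0.46, adjusted p = 0.621). Tnf, an inflammatory cytokine, differed by 0.08 ± 0.17 (adjusted p = 0.862), with 68.9 to 87.2 CPM with both cytokines and 66.6 to 80.0 CPM with IL-25.

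Genes of the NF-kB pathway, which both receptors feed, showed 3 of 24 tested members higher at a median of 0.15, where 1.36% of all genes tested were higher. By edgeR none was lower, while DESeq2, which gave Relb no adjusted p, called 2 higher and 1 lower. The 6 compared libraries fitted alone gave 6 higher and 3 lower. Over all 8538 genes tested, that fit called 399 higher and 471 lower. Nfkbia, which encodes the inhibitor IκBα and is itself a target of the pathway, stood at 657, 642 and 571 CPM with both cytokines, against 449, 410 and 442 CPM with IL-25. Relb, a subunit of the non-canonical arm, stood at 39.2, 47.6 and 42.0 CPM with both cytokines, against 25.3, 24.1 and 25.7 CPM with IL-25. Zc3h12a, which encodes the RNase Regnase-1 that degrades cytokine transcripts, stood at 119, 129 and 122 CPM with both cytokines, against 82.3, 63.1 and 75.1 CPM with IL-25. All 3 genes were above the 9 other libraries in each library with both cytokines. Their log2 fold changes were 0.52 ± 0.12 for Nfkbia (adjusted p = 0.0215), 0.78 ± 0.20 for Relb (0.0331) and 0.75 ± 0.16 for Zc3h12a (0.011), by edgeR. These calls were not stable. Nfkbia lost its call without any IL-25 library or without library 1 or 2 with both cytokines (adjusted p = 0.0638 to 0.11). Relb lost it without any 1 of the 6 compared libraries (0.0719 to 0.15, by edgeR). Zc3h12a lost it without IL-25 library 2 or 3 or library 2 with both (0.0531 to 0.0851, by edgeR), and was at −0.07 with the split as a term.

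The promoters of 3 of the higher genes are shown because their transcripts sit at 3 points of this account, a cytokine, an inhibitor of the pathway and a transcription factor, and because each window holds a match to the 10-base NF-kB (kB) consensus. Each is the RefSeq window of GRCm38.p6 (the mm10 assembly) from 250 bases before to 50 after the start of the gene, 5′ to 3′ on the strand of the gene, with the match in capitals. The windows are Il6 at chr5:30012864-30013163 (plus strand), Nfkbia at chr12:55492598-55492897 (minus strand) and Spib at chr7:44532022-44532321 (minus strand).
Il6: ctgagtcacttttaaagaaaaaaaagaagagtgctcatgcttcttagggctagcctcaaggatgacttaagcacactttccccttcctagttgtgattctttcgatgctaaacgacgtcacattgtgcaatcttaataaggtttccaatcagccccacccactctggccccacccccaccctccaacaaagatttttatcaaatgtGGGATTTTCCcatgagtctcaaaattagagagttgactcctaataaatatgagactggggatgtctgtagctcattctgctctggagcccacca
Nfkbia: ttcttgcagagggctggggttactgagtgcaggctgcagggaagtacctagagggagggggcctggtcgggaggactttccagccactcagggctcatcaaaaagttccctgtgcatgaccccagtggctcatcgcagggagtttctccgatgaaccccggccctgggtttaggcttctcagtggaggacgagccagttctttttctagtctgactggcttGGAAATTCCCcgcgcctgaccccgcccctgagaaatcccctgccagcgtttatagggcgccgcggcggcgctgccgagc
Spib: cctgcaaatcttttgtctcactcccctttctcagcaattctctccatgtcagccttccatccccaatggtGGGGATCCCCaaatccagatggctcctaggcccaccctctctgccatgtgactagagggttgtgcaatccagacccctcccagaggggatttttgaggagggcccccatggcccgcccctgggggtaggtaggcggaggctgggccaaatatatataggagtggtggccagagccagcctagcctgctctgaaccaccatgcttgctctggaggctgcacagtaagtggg
The match lies 44 to 35 bases before the start in Il6 and 29 to 20 bases before it in Nfkbia, where it reads on the opposite strand. In Spib it lies 180 to 171 bases before the start and reads the same on both strands. Searched on both strands, the consensus was in 4.51% of the 32851 promoter windows of 300 bases. Of the higher genes 89 had a window and 9 of these held a match (10.1%), against 442 of 7187 genes tested (6.15%) and 8 of 127 lower genes (6.3%). The other higher genes with a match were Snhg8, Cxcl1, Cxcl10, Fam118a, H2-Aa and Ptprs, of which 3 are not described elsewhere. Snhg8 lost its call without any 1 of the 6 compared libraries or vehicle library 2 (edgeR adjusted p = 0.0677 to 0.183). Fam118a lost it without any 1 of those 6 or vehicle library 3 (0.0515 to 0.166, by edgeR), and Ptprs without IL-25 library 2 or 3 or library 1 with both cytokines (0.057 to 0.0925, by edgeR). A match is a description of these letters, not of binding.

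Of 42 lymphoid transcription factors, Irf4 and Spib were higher and Pou2f2 was lower, at a median of −0.01. The shares over all genes tested were 1.36% higher and 1.79% lower. Spib, an ETS factor known from B cells and plasmacytoid dendritic cells, stood at 85.0, 87.5 and 108 CPM with both cytokines, against 35.6, 44.6 and 34.1 CPM with IL-25. The 6 libraries without IL-25 held at most 12.9 CPM of Spib. Its log2 fold change was 1.29 ± 0.22 (adjusted p = 0.00301), and −0.66 with the split as a term (adjusted p = 0.747). Pou2f2, which encodes the octamer factor Oct-2, stood at 154, 152 and 166 CPM with both cytokines, against 207, 226 and 229 CPM with IL-25 and at most 33.3 CPM in the libraries without IL-25. Its fall of 0.49 ± 0.11 on the log2 scale passed (adjusted p = 0.0175), and was lost without IL-25 library 2 or 3 or library 1 or 2 with both (adjusted p = 0.0776 to 0.101). Gata3 differed by −0.13 ± 0.13 (adjusted p = 0.651). Cd69, an early activation marker that also holds lymphocytes in tissue, stood at 118, 126 and 138 CPM with both cytokines, against 65.4, 68.7 and 78.6 CPM with IL-25. Without IL-25 it was at most 20.9 CPM, and its log2 fold change was 0.84 ± 0.16 (adjusted p = 0.005). Sema6d, a membrane-bound guidance protein, stood at 47.2, 55.3 and 54.1 CPM with both cytokines, against 22.0, 24.1 and 25 CPM with IL-25 (1.14 ± 0.22, adjusted p = 0.00604). Cd69 was the 1 higher gene among 19 tested costimulatory, checkpoint and activation receptors, whose median was −0.16.

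Il1rl1, which encodes the IL-33 receptor ST2 (chr1:40429570-40465415, plus strand), was lower in all 3 libraries with IL-33 added. It stood at 33.4, 23.0 and 28.7 CPM with both cytokines, against 59.0, 85.0 and 60.5 CPM with IL-25. IL-33 alone gave 11.7, 12.3 and 22.2 CPM and vehicle 10.5, 10.5 and 6.64 CPM, so that the libraries with both cytokines lay between IL-25 and the others. The log2 fold change was −1.27 ± 0.22 (adjusted p = 0.00301), and −2.16 with the split as a term (adjusted p = 0.118). The effect of IL-33 on Il1rl1 differed with and without IL-25 (−1.96 ± 0.41 on the log2 scale, interaction adjusted p = 0.0152), though the test missed the threshold without vehicle library 3 (adjusted p = 0.0583) or library 2 with both (0.0517). Counts per gene do not part the membrane-bound form of ST2 from the soluble one. Il17rb, the IL-25 receptor, stood at 16, 14.2 and 10.8 CPM with both cytokines, against 17.5, 18.4 and 19.5 CPM with IL-25 (−0.43 ± 0.28, adjusted p = 0.443). Il1rap was below the filter, at 3, 5 and 11 counts with both cytokines and 1, 6 and 4 with IL-25. Of 27 tested genes of the 2 receptors, their adaptors and brakes, Zc3h12a was higher and Il1rl1 lower, at a median of −0.05. The shares over all genes tested were 1.36% higher and 1.79% lower.

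In the list of S100 proteins, galectins, annexins and granule proteins 8 of 26 tested genes were lower and 1 was higher, at a median of −0.37. Over all genes tested 1.79% were lower and 1.36% higher. S100a4, a calcium-binding protein tied to cell motility, stood at 2996, 3442 and 3735 CPM with both cytokines, against 7299, 6050 and 6477 CPM with IL-25. IL-33 alone gave 1785 to 3050 CPM and vehicle 2599 to 3173 CPM, so the libraries with both cytokines lay near those without IL-25. S100a4 fell by 0.96 ± 0.14 on the log2 scale (adjusted p = 0.00113). S100a11 stood at 121, 161 and 201 CPM with both cytokines, against 754, 416 and 471 CPM with IL-25 and 208 to 498 CPM in the other 6 libraries, so that it was below all 9. It fell by 1.76 ± 0.26 (adjusted p = 0.00113). The other 6 lower genes were Anxa1, Anxa2, Lgals3, S100a6, S100a10 and S100a13, with log2 fold changes of −1.0 (Anxa1) to −0.41 (Lgals3), and the higher one was Wfdc21 (1.16). Lgals3, which encodes galectin-3, stood at 3245, 2895 and 3121 CPM with both cytokines, against 3953, 4345 and 4042 CPM with IL-25. Each of these 6 lost its call without IL-25 library 1 or 3 or library 1 or 2 with both cytokines (adjusted p = 0.0632 to 0.212). S100a6, Anxa2 and Lgals3 also lost theirs without IL-25 library 2, Anxa2 and Lgals3 without library 3 with both, and Anxa2 without any vehicle library, within the same range. Without IL-25 library 1, 2 or 3 the count of lower genes of this list was 2, 5 or 2, and without library 1 or 2 with both cytokines it was 2. In the same order those fits called 54, 82, 56, 44 and 43 genes lower over all genes tested. Wfdc21 lost its call without any 1 of the 6 compared libraries or vehicle library 2 (adjusted p = 0.0521 to 0.187), and was at −0.80 with the split as a term. None of the list was lower in the fit with the split as a term, by edgeR. The 3′ ends of S100a4 and S100a11 match other genes (1 and 2, at 95% identity over 100 nt or more of the last 300), so that reads could be split between them, and their values are uncertain.

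Other lower genes that kept their calls included membrane, redox and protein-handling genes. Ifitm3, a membrane protein that restricts virus entry, stood at 535, 635 and 597 CPM with both cytokines, against 1052, 925 and 1104 CPM with IL-25. With IL-33 or vehicle it stood at 419 to 620 CPM, so that its level with both cytokines was that of the libraries without IL-25 (−0.80 ± 0.12, adjusted p = 0.00137). Ifitm1 fell by 0.56 ± 0.11 (adjusted p = 0.00619), at 5906, 7194 and 7580 CPM with both cytokines and 10337, 9300 and 10750 CPM with IL-25, and lost its call without library 1 with both (adjusted p = 0.0572). Gpx4, which detoxifies lipid peroxides, stood at 82.1, 113 and 117 CPM with both cytokines, against 301, 214 and 256 CPM with IL-25. It followed the split, with 92.4 CPM in IL-33 library 3 and 122 to 140 CPM with vehicle, against 186 and 207 CPM in IL-33 libraries 2 and 1. Gpx4 fell by 1.30 ± 0.20 (adjusted p = 0.00137). Ppia, a prolyl isomerase, followed the split in the same way, at 170, 205 and 255 CPM with both cytokines and 710, 511 and 515 CPM with IL-25 (−1.46 ± 0.23, adjusted p = 0.00137). Gclm, a subunit of the enzyme that starts glutathione synthesis, stood at 138, 121 and 120 CPM with both cytokines, against 210, 200 and 191 CPM with IL-25 (−0.67 ± 0.13, adjusted p = 0.00623). It was below all 9 others and also followed the split, with the 7 libraries of the Glycam1 side below the 5. Map4k4 (−0.97), the mRNA decapping enzyme Dcp2 (−1.14) and Ctla2a (−0.70), whose product is related to cathepsin inhibitors, were below all 9 others and did not follow the split. The 3′ ends of Ppia and Gpx4 match 15 and 1 other genes. Of the lower genes with a 3′ end in the annotation 16.7% had such a match, against 5.45% of all genes tested, and its part in the result was not tested.

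Of 73 cytosolic ribosomal proteins 7 were lower and 2 higher, at a median of −0.10, where 1.79% of all genes tested were lower and 1.36% higher. Rps6 (−0.92 ± 0.14) and Rpl9 (−0.56 ± 0.10) were among the lower ones, and Rpl39 stood at 1386, 1462 and 1254 CPM with both cytokines, against 704, 679 and 764 CPM with IL-25 (0.93 ± 0.16, adjusted p = 0.00256). The other higher one, Rps27a (0.59), lost its call without IL-25 library 2 or 3 or any library with both cytokines (adjusted p = 0.076 to 0.174). The 3′ ends of Rps6, Rpl9 and Rpl39 match 10, 1 and 8 other genes, in that order, and their values are uncertain. Without IL-25 library 1, library 1 with both or IL-33 library 1 or 3, the count of lower ribosomal proteins was 3, 4, 13 and 15. In the same order those fits called 54, 44, 245 and 335 genes lower over all genes tested. Of 70 respiratory chain subunits 4 were higher (Cox5a, Cox7b, Ndufc1 and Uqcrb) and Uqcrh was lower, at a median of −0.02, and the 1 lower gene of 70 is near the share of all genes. Uqcrb, a subunit of complex III, stood at 212, 210 and 220 CPM with both cytokines, against 143, 128 and 117 CPM with IL-25 (0.73 ± 0.14, adjusted p = 0.00719), and its 3′ end matches 3 other genes. Its call was lost without IL-25 library 3 (adjusted p = 0.0574). Cox7b lost its call without IL-25 library 2 or 3 or library 2 with both (0.0579 to 0.0613, by edgeR), and Ndufc1 in the same fits and without library 1 or 3 with both (0.0508 to 0.149, by edgeR). Cox5a lost it without any 1 of the 6 compared libraries or vehicle library 2 or 3 (0.0561 to 0.175, by edgeR). Uqcrh lost it when library 1 or 3 with both cytokines, or IL-25 library 1, was left out (0.0659 to 0.136, by edgeR). Of 31 genes of ribosome biogenesis Cad, Nop56 and Pa2g4 were higher at a median of 0.26, with log2 fold changes of 0.46 (Nop56) to 0.60 (Cad). Each of these 3 lost its call without each IL-25 library and without libraries 1 and 2 with both cytokines, Cad and Pa2g4 also without library 3 with both, and Cad without any vehicle library (edgeR adjusted p = 0.0552 to 0.173). None of the 26 S phase and 21 G2/M genes tested passed by edgeR, DESeq2 or limma-voom. At an unadjusted edgeR p under 0.05 were 2 and 1 of them, and 18.4% of all genes tested. DESeq2 gave no adjusted p to Mki67, a gene of the G2/M list. The proliferation marker Mki67 stood at 40.0, 44.3 and 57.3 CPM with both cytokines, against 63.5, 48.2 and 49.4 CPM with IL-25 (−0.19 ± 0.23, adjusted p = 0.727). None of 23 genes of glycolysis and hypoxia passed by edgeR or DESeq2, while limma-voom called 1 and 5 had an unadjusted p under 0.05.

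**Figure D4:**
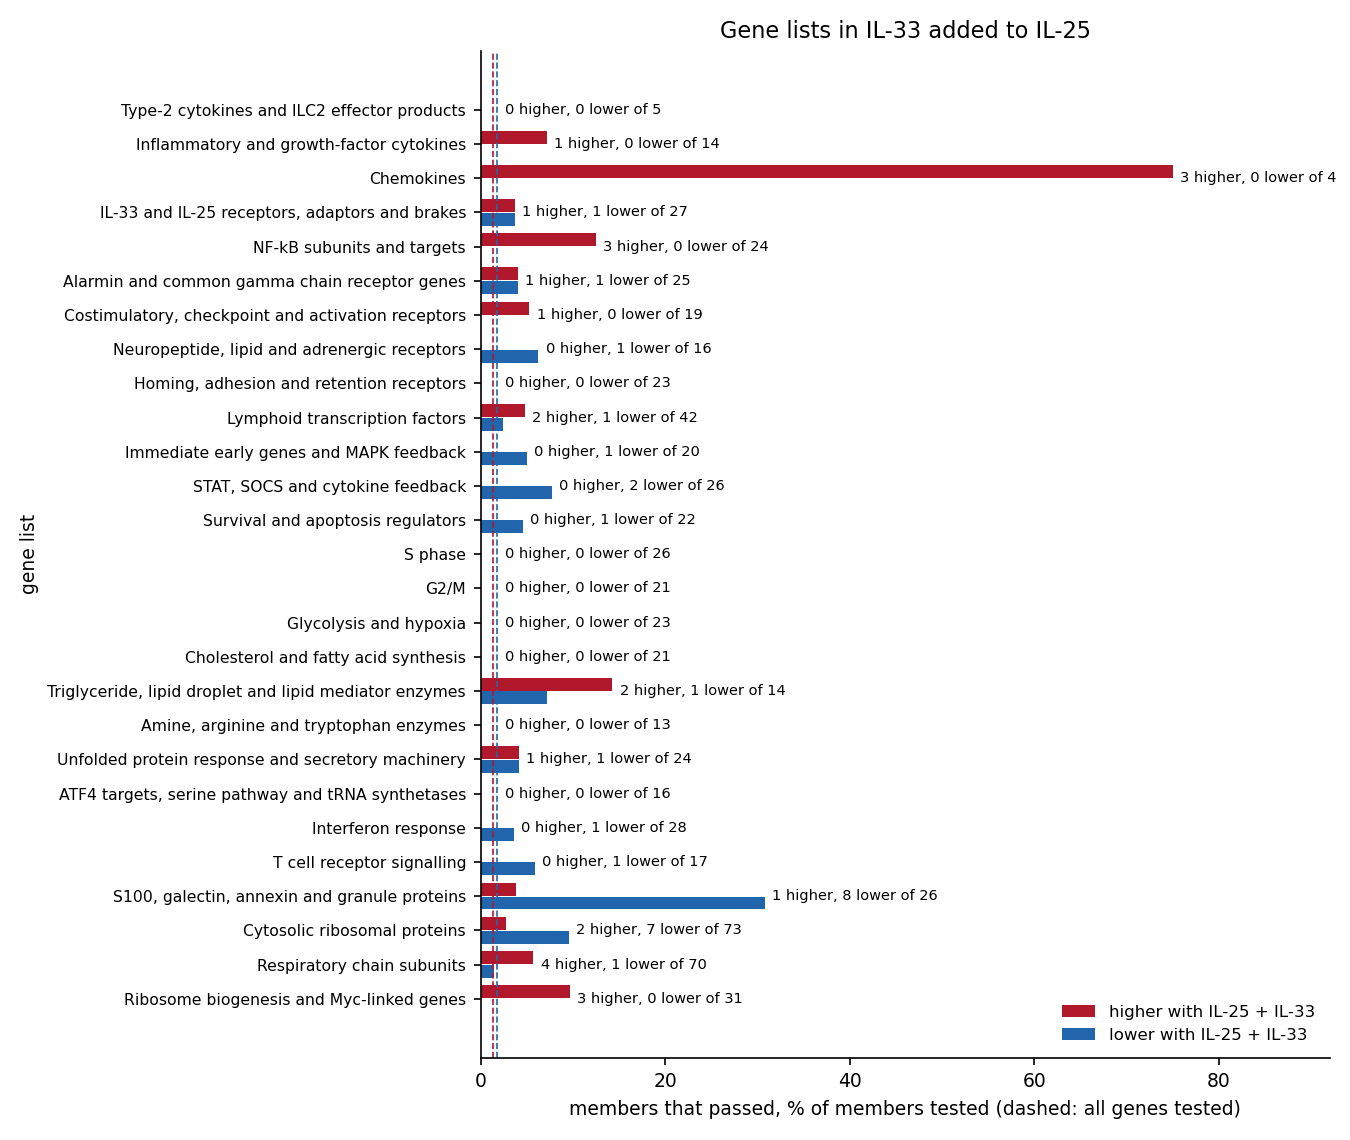
Share of the tested members of each of 27 gene lists that passed with a higher or a lower level with both cytokines than with IL-25 (x axis, percent); dashed lines give the share over all genes tested. Lists of 4 or 5 tested genes, such as the chemokines, give coarse shares.

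None passed by edgeR among 23 homing and adhesion receptors (median −0.17), 13 enzymes of amines, arginine and tryptophan (0.09) and 16 ATF4 targets and tRNA synthetases (0.20). At an unadjusted edgeR p under 0.05 these lists held 8, 4 and 5 genes, where 18.4% of all genes tested had such a p. DESeq2 called 1 homing receptor. Il6 was the 1 gene that passed among 14 inflammatory and growth-factor cytokines (median 0.13), and Ifitm1 and Ifitm3 those among 26 genes of STAT and SOCS feedback (median 0.0048). Over all genes tested 1.36% were higher and 1.79% lower. Single members passed in further lists, each with a call that single libraries decide. Lower were Trp53 (−0.63) among 22 survival and apoptosis regulators, Btg2 (−0.45) among 20 immediate early genes, Gpr65 (−0.82) among 16 receptors for neuropeptides, lipids and amines, Rtp4 (−0.97) among 28 interferon response genes and Cd3g (−0.81) among 17 genes of T cell receptor signalling. Among 24 genes of the unfolded protein response P4hb was higher (0.60) and Manf lower (−0.77), and Tgfbr1 was the 1 higher gene (0.81) among 25 receptor genes. Trp53, Btg2, Gpr65 and Tgfbr1 lost their calls without any 1 of the 6 compared libraries (edgeR adjusted p over all these fits = 0.0507 to 0.215), and Btg2 and Gpr65 also without any vehicle library. Rtp4 lost its call without IL-25 library 3 or library 2 with both (0.0579 and 0.0711, by edgeR). Cd3g lost it when library 2 or 3 with both cytokines, or IL-25 library 1, was left out (0.0767 to 0.134, by edgeR). P4hb lost it without any IL-25 library or library 1 with both (0.0523 to 0.0882), and Manf without IL-25 library 1 or 3 or library 1 or 2 with both (0.0926 to 0.129), by edgeR. Cd3g stood at 206, 166 and 164 CPM with both cytokines, against 422, 247 and 269 CPM with IL-25. It is itself 1 of the T cell and thymocyte markers summed above, so their lower sum is not separate from it. Among the 8 tested members of that list Cd3g was the 1 that passed. Whether T cells or thymocytes had a part in its fall was not tested.

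Stromal and antigen-presentation genes made up many of the steepest differences and lay along the split. Dcn, a matrix proteoglycan of fibroblasts, stood at 10.2, 16.4 and 9.55 CPM with both cytokines and at 0 with IL-25, but also at 6.47 CPM in IL-33 library 3 and 5.88 to 14.2 CPM with vehicle. With 0 counts in the IL-25 group, a floor of 3 counts over that group was used for Dcn, Cxcl12 and Glycam1. By summed counts Dcn was at least 19.0-fold, Cxcl12 at least 10.6-fold and Glycam1 at least 233-fold higher with both cytokines. The floor covers counting error in the IL-25 group only, not the spread between libraries. H2-Aa, an MHC class II chain, stood at 59.6, 62.4 and 46.5 CPM with both cytokines, against 1.94, 1.42 and 2.09 CPM with IL-25. IL-33 gave 5.84, 0 and 36.9 CPM of H2-Aa and vehicle 29.4 to 69.3 CPM, and its log2 fold change was 4.88 ± 0.71 (adjusted p = 0.00113). Igfbp7, a secreted protein of vessels and stroma, stood at 49.4, 39.4 and 35.7 CPM with both cytokines, against 1.94, 2.83 and 2.09 CPM with IL-25 (4.13 ± 0.72, adjusted p = 0.00322). Of the 7 tested MHC class II and costimulatory ligand genes, H2-Aa, H2-Ab1, H2-Eb1 and Cd74 were higher (1.36% of all genes tested were), at a median of 2.37. The 8 listed members summed to 317 to 401 CPM with both cytokines, 237 to 286 with IL-25, 244.5 to 393 with IL-33 and 326 to 511 with vehicle. Of the 5 tested fibroblast and endothelial markers Dcn, Col1a2 and Sparc were higher, at a median of 4.5, and the 6 listed summed to 218 to 240 CPM with both cytokines and 153 to 170 CPM with IL-25. Dcn, Col1a2 and Bgn were at 0 in all 3 IL-25 libraries. H2-Ab1 lost its call without any IL-25 library or library 1 with both (adjusted p = 0.0551 to 0.0794), and Cd74 without IL-25 library 1 or 3 or library 1 with both (0.0531 to 0.0665, by edgeR). Col1a2 lost it without any IL-25 library or library 2 with both (0.0693 to 0.0789, by edgeR), and Sparc without each IL-25 library and without libraries 1 and 2 with both cytokines (0.0557 to 0.087, by edgeR). Clu and Apoe, secreted proteins that followed the split too, lost theirs in those same 5 fits (0.0579 to 0.0976, by edgeR). None of the genes in this paragraph passed with the split as a term, and Igfbp7, H2-Ab1, Col1a2, Sparc and Clu changed sign in it.

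The effect of IL-33 with IL-25 present differed from its effect without it for 208 genes by edgeR's interaction test (2.35% of genes tested), with 92 higher (1.04%) and 116 lower (1.31%). IL-33 over vehicle called 21 genes in IL25R+ cells (0.237%), Dgat2 among them (3.20, adjusted p = 0.0455). The 3 IL-33 libraries lie on both sides of the split, and the 208 became 701 without IL-33 library 3. They became 133, 88 and 68 without vehicle library 1, 2 or 3, 57, 86 and 102 without IL-25 library 1, 2 or 3, and 104, 45 and 114 without library 1, 2 or 3 with both cytokines. With the split as a term the interaction called 14 genes.

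ST2+ ILC2 given IL-33 share no library with this comparison, and their table was normalised apart, so values are set side by side without a test between populations. The ST2+ libraries held 537999 to 2736408 counts with vehicle and 1187302 to 5453444 with IL-33. Low values with vehicle thus rest in part on shallow libraries. In ST2+ cells IL-33 over vehicle called 650 genes higher (8.52% of 7626 tested) and 612 lower (8.03%). Of the 120 genes higher in IL25R+ cells 105 were tested there, and 30 were higher (28.6%) and 3 lower (2.86%). Of the 64 that lay above all 9 other libraries 58 were tested, with 22 higher (37.9%). Of the 28 along the split 20 were tested, with 1 higher and 3 lower. Of the 158 lower genes 147 were tested, with 4 higher (2.72%) and 23 lower (15.6%). Over the 7154 genes tested in both, 8.05% were higher and 7.8% lower. The count of 1262 calls in ST2+ cells was 736 and 737 without vehicle library 1 or 2, 619 and 693 without IL-33 library 1 or 4, and 2581 without IL-33 library 2.

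Several of the genes named above passed in ST2+ cells under IL-33 as well. Dgat2 stood at 585, 803, 497 and 426 CPM with IL-33, against 17.1, 5.42, 12.0 and 9.62 CPM with vehicle in ST2+ cells (5.62 ± 0.35, adjusted p = 2.16e-05). Irf4 stood at 117, 40.1, 54.4 and 127 CPM with IL-33, against 5.18, 3.61, 0 and 3.33 CPM with vehicle (4.60 ± 0.54, adjusted p = 0.000707). Lad1 stood at 40.2, 130, 139 and 22.2 CPM with IL-33 and at most 1.85 CPM with vehicle (5.85 ± 0.79, adjusted p = 0.00119). Slc15a3, a transporter of the lysosome membrane, was at 82.6 to 148 CPM with IL-33 and at most 4.14 CPM with vehicle (5.12 ± 0.48, adjusted p = 0.000261). In IL25R+ cells Slc15a3 stood at 12.3, 12.6 and 8.92 CPM with both cytokines, against 0, 0.708 and 2.78 CPM with IL-25 (3.21 ± 0.68, adjusted p = 0.0106). That call was lost without IL-25 library 1 or 2 or library 1 or 2 with both (adjusted p = 0.0522 to 0.0724). Il6 (3.26 ± 0.56), Zc3h12a (2.44 ± 0.26) and Nfkbia (1.78 ± 0.19) were also higher with IL-33 in ST2+ cells. Il13 there was at 12565, 3331, 9129 and 12731 CPM with IL-33, against 321, 161, 189 and 673 CPM with vehicle (4.80 ± 0.59, adjusted p = 0.000864). Il9 was at 62.1 to 137 CPM with IL-33 and at most 0.518 CPM with vehicle, and Il5 at 109 to 1274 CPM against 5.42 to 20.3 CPM. Csf2 (3.74 ± 0.51) and Tnf (2.25 ± 0.43) rose there, while in IL25R+ cells they did not pass when IL-33 was added to IL-25. Whether these effects differ between populations was not tested.

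The values of further genes are set side by side here. Pou2f2, lower when IL-33 was added to IL-25, was higher with IL-33 in ST2+ cells, at 46.1 to 66.6 CPM against 6.66 to 12.6 CPM with vehicle (2.72 ± 0.29, adjusted p = 0.000456). Il17rb stood at 12.2 to 20.5 CPM with IL-33, against 58.5 to 125 CPM with vehicle in ST2+ cells (−2.37 ± 0.30, adjusted p = 0.000931). Alox5ap was lower with IL-33 there too, at 13.1 to 26.7 CPM against 43.0 to 99.9 CPM with vehicle (−2.15 ± 0.33, adjusted p = 0.0022). Il1rl1 stood at 197, 98.0, 234 and 226 CPM with IL-33, against 468, 359, 315 and 174 CPM with vehicle, and did not pass in ST2+ cells (−0.79 ± 0.33, adjusted p = 0.126). Mgll (0.35 ± 0.47, adjusted p = 0.659), Cd69 (0.30 ± 0.54, 0.752) and Relb (0.55 ± 0.23, 0.132) did not pass there either. Ccl3, Spib, Dcn, Glycam1 and Clu were not tested in ST2+ cells. Each ST2+ gene said to have passed here and in the paragraph before kept its call in all 8 fits that left out 1 ST2+ library.

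**Figure D5:**
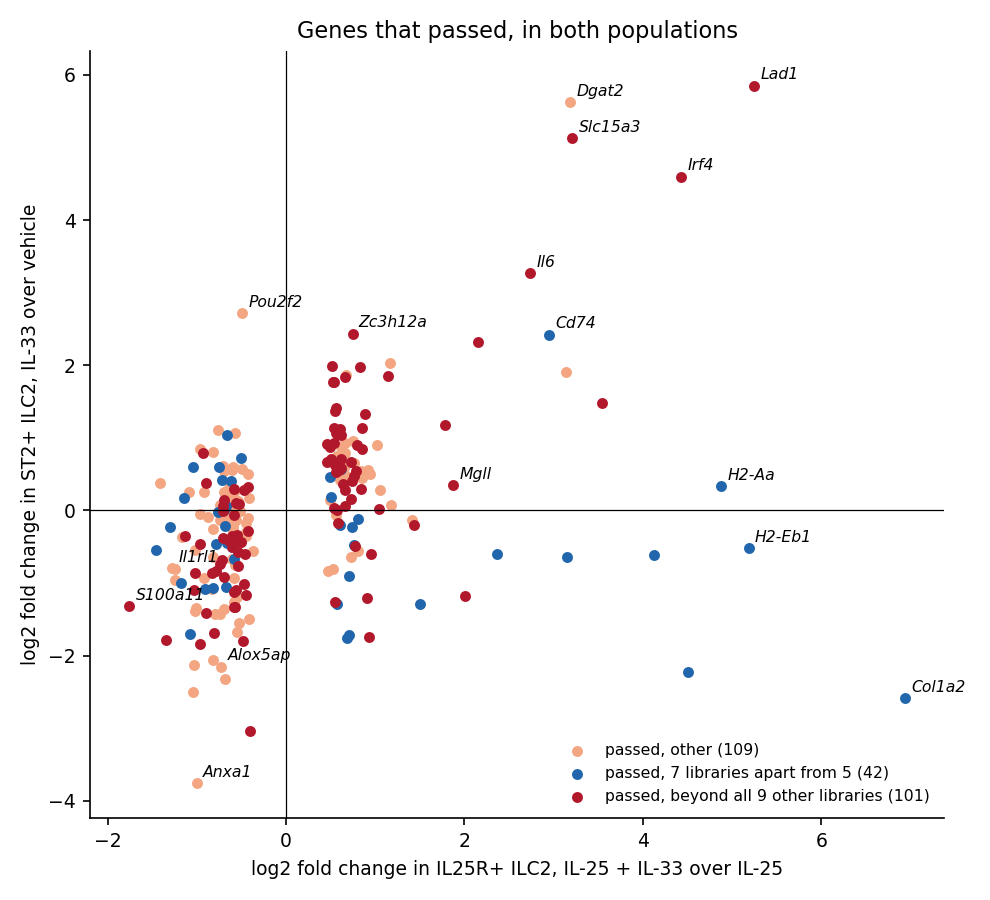
The log2 fold change of 252 genes that passed in IL25R+ cells with both cytokines over IL-25 (x axis) and their log2 fold change in ST2+ cells with IL-33 over vehicle (y axis), coloured as in the plot of adjusted p. Irf4, Lad1, Dgat2, Slc15a3 and Il6 lie to the right on the x axis and high on the y axis.

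Further genes that were higher in all 12 fits with 1 library left out were Tubb6, Prmt3, Slc25a12, H3f3c, Sp3 and Retreg2. Tubb6, a beta-tubulin, stood at 10.9, 15.3 and 8.28 CPM with both cytokines, against 0.648, 0 and 2.09 CPM with IL-25, and above all 9 others (3.55 ± 0.66, adjusted p = 0.005). Slc25a12, the mitochondrial carrier of aspartate and glutamate, stood at 81.4, 81.5 and 85.4 CPM with both cytokines, against 55.1, 48.2 and 42.4 CPM with IL-25, and also above all 9 others (0.77 ± 0.14, adjusted p = 0.00429). Sp3, a zinc finger transcription factor, followed the split, at 78.4, 84.8 and 74.5 CPM with both cytokines and 30.5, 12.0 and 41.0 CPM with IL-25, while vehicle held 62.1 to 86.7 CPM (1.5 ± 0.28, adjusted p = 0.00469). Prmt3, an arginine methyltransferase, had a log2 fold change of 0.91 ± 0.18 and Retreg2, a receptor of endoplasmic reticulum turnover, of 0.76 ± 0.15. Retreg2 also followed the split and was at 0.16 with the split as a term (edgeR adjusted p = 0.856), and Prmt3 neither followed it nor lay above all 9 others. H3f3c was at 2.01 ± 0.38, but its 3′ end matches 18 other genes. Cd34, a sialomucin, stood at 12.3, 10.9 and 8.92 CPM with both cytokines, against 1.30, 0 and 2.78 CPM with IL-25 (2.89 ± 0.59, adjusted p = 0.00853). Its call was lost without IL-25 library 1 or 2 (adjusted p = 0.0537 and 0.0562). Gapdh, a glycolytic enzyme whose 3′ end matches 120 other genes, stood at 811, 815 and 913 CPM with both cytokines, against 11.7, 12.8 and 1412 CPM with IL-25. It did not pass (0.82 ± 1.07, adjusted p = 0.742) and passed without IL-25 library 3 (adjusted p = 0.0244).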

How the data were processed

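Bulk MARS-seq was made from 20 libraries, and the 12 of IL25R+ cells and the 8 of ST2+ cells come in 1 table each. Per the submitters' processing notes, bcl2fastq, cutadapt, STAR 2.5.2b, HTSeq and DESeq2 were used with build mm10. Whether reads or molecular identifiers were counted is not given in the sources used here. The authors deposited counts per gene and library (used here), the signal after division by size factors, regularised log2 values, log2 fold changes and p-values with their adjusted form. Size factors recomputed from the counts equalled the authors'. For this comparison 214 genes had an adjusted p under 0.05 in the authors' deposited table, and edgeR called 183 of them in the same direction.

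Genes passed filterByExpr (minimum count 10, minimum total 15, proportion 0.7), library sizes were scaled by TMM, and edgeR 4.0.16 in R 4.3.3 fitted 1 coefficient per group over all libraries of a table. P-values were adjusted by Benjamini-Hochberg over all genes tested at 0.05. The SE is the absolute log2 fold change over the square root of F. Of the listed symbols 98.3% matched GENCODE M21, used for positions and 3′ ends. The members, the 27 gene lists and 11 marker lists, and the alternatives were chosen with earlier results of these data known. Named genes were 12 higher and 12 lower ones, taken by size of change from genes that passed at a mean of at least 10 CPM, a fixed set, and up to 4 per list, of which the text names a part. Sema6d, Tubb6, Sp3, Prmt3, Slc25a12, Retreg2, H3f3c, Slc15a3, Cd34, Gclm, Map4k4, Dcp2, Ctla2a, Dcn, Col1a2, Sparc, Cxcl12, Cox5a, Lgals3, Anxa2, S100a6, S100a13, Wfdc21, Snhg8, Fam118a and Ptprs were named after their values were seen. Markers of mast cells (1 tested gene, Cpa3, lower, but not without vehicle library 1, IL-25 library 1 or 3 or any library with both cytokines, edgeR adjusted p = 0.0502 to 0.167), thymic epithelium, B, NK and ILC3 cells held none that was higher, by edgeR. The code was tested on simulated data.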

Additional observations from a re-analysis of the deposited data

Results flagged for a closer look

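For 25 of the named genes the effect of IL-33 with IL-25 present differed from its effect without it in a test of the difference itself by edgeR, as did 208 of the genes tested (2.35%). The values given are the log2 change with both cytokines over IL-25 minus that with IL-33 over vehicle. The 15 genes with the larger change where IL-25 was present include Mgll at 2.745, Slc25a12 at 1.032, Sp3 at 1.907, Retreg2 at 0.9094 and H3f3c at 2.32. Subunits of the respiratory chain and ribosome among them were Uqcrb at 1.547, Cox7b at 1.205, Ndufc1 at 0.9425, Rpl39 at 1.656 and Rps27a at 0.9065. Sp3 and Retreg2 followed the split of the libraries, and so did the remaining 5, namely H2-Aa at 6.768, Igfbp7 at 6.461, Apoe at 5.955, Cd74 at 4.623 and H2-Ab1 at 3.968.

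The 10 genes with a lower change where IL-25 was present were Il1rl1 at −1.961, S100a11 at −1.729, Gpx4 at −1.631, Ppia at −1.575, Map4k4 at −1.126, Dcp2 at −1.099, Trp53 at −1.048, Rps6 at −0.8509, Gclm at −0.8148 and Rpl9 at −0.5319. In all 12 fits with 1 library left out the interaction passed for Slc25a12, Rpl39, Uqcrb, Cox7b, Gpx4, Igfbp7, H2-Aa, H2-Ab1, Cd74 and Apoe. It was lost in 1 such fit each for Mgll (without vehicle library 1), Sp3 (without library 2 with both cytokines) and Ppia (without IL-25 library 1), and in 2 to 11 fits for the other 12 genes. The 3 IL-33 libraries lie on both sides of the split, and none of these 25 passed with the split as a term.

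In ST2+ cells, 1 library stood far from the other 3 of its group in 3 of 38 groups of 4 libraries examined. IL-33 library 2 held 277.2 CPM of Zc3h12a and 1.113 CPM of Cd69, and vehicle library 4 held 15.54 CPM of Cd69. Chance flags about 1 in 20 such groups.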

How the results depend on the processing

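The 278 calls with both cytokines over IL-25 (120 higher, 158 lower) became 870 (399 and 471) when the 6 compared libraries were fitted alone, 5 (4 and 1) with the split as a model term, and 70 (41 and 29) with a fold change of at least 2. They became 830 (363 and 467) without the 3 IL-33 libraries together, a fit added after seeing the data. Leaving out 1 library gave 80 to 620 calls, with 37 to 285 higher and 43 to 335 lower. The 208 interaction calls became 14 with the split term and 45 to 701 with 1 library left out, and the 1262 calls in ST2+ cells became 619 to 2581. Size factors, no filter, a filter at 10 CPM, DESeq2, limma-voom and the replicate block gave 279, 223, 259, 249, 310 and 220 calls. DESeq2 gave no adjusted p to 60 of the 278 genes, Irf4, Lad1, Dgat2, Mgll, Il6 and Il1rl1 among them, and these are not counted as lost. In the DESeq2 counts per gene list, a gene without an adjusted p counts as not passed. Libraries of the same replicate number showed no shared deviation over all genes (correlations of −0.0512, −0.0267 and −0.00413). Such values cannot show whether these libraries came from the same mouse or culture, which is not stated. The block gave 1241 calls in ST2+ cells.

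With the split as a term, the fold changes of Spib (−0.66), Zc3h12a (−0.070), Cox5a (−0.14), Cad (−0.078), Manf (0.11), Tgfbr1 (−0.083), Wfdc21 (−0.80), Clu (−1.45), Igfbp7 (−0.56), H2-Ab1 (−0.40), Col1a2 (−0.40), Sparc (−0.47) and Cxcl1 (−0.52) changed sign. So did the interactions of Retreg2 (−0.073), S100a11 (0.25), Ppia (0.50), Gpx4 (0.28), Rps6 (0.17), Map4k4 (0.28), Dcp2 (0.094) and H2-Ab1 (−0.14). Tnf was at −0.0079 without library 1 with both cytokines, the lowest of its values with 1 library left out, the highest being 0.16. The cause was not tested. Depth limits genes under about 10 CPM, where single libraries hold few counts.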

Other observations

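Aire, a transcription factor of medullary thymic epithelium, stood at 0, 0 and 1.27 CPM with both cytokines and 36.3, 29.8 and 24.3 CPM with IL-25. With IL-33 it stood at 10816, 28.2 and 0 CPM, and with vehicle at 0, 0 and 1.9 CPM, so that IL-33 library 1 held far more than any other library. Aire also lay along the split, opposite to Glycam1. It was at most 1.9 CPM in the 7 libraries of the Glycam1 side and at least 24.3 CPM in the other 5. It did not pass with both cytokines over IL-25 (edgeR adjusted p = 0.36). Of the markers of thymic epithelium and tuft cells, Aire among them, none was lower with all 12 libraries. By edgeR 1 of these markers was lower without IL-33 library 1, and 1 with the 6 compared libraries fitted alone.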
